A study of Mus musculus with 12 samples.

Results

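The RNA content of control mouse liver was described from 4 of the 12 arrays of the series, those whose titles name the control group. The control mice were males of strain C57BL/6 aged 12 weeks, born to lean control parents, and nothing in the labels gives them an allele or a treatment. The other 8 arrays hold liver RNA of males of the same strain and age, 4 labelled F2 grandsons and 4 labelled F3 great-grandsons of obese females carrying the Avy/a genotype, in which the viable yellow agouti allele causes obesity. The generation of each control male, the diet, the hours since the last meal and the time of day are not given in the labels. Nothing in them says that replicates came from separate animals, so the spread between arrays is the spread between these samples and may in part be technical.

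The liver parenchyma is made mostly of hepatocytes, which secrete most plasma proteins, clear ammonia, oxidise foreign compounds and switch between making and burning fat with the supply of food. Hepatocyte genes are transcribed under a small set of factors, among them HNF4 alpha, HNF1 alpha, the forkhead factors and the C/EBP family. Nuclear receptors such as PPAR alpha, which binds fatty acids, and sterol-sensing factors of the SREBP family add the response to food. Pulsatile growth hormone makes the livers of male and female mice differ, and cytokines released in inflammation raise the acute phase proteins.

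A gene here is a symbol that stands alone on its probe set, and 30142 genes were measured. The deposited log2 values are fluorescence summaries. A probe set's brightness depends on its own probes as well as on the amount of RNA, so the order of genes by brightness is a description of this array and not a ranking of transcript numbers, and very bright probe sets can be compressed near the top of the scale. A gene is called bright where its mean over the 4 control arrays was among the 3015 highest, at 8.01 or above, and 1919 of these were protein coding. At that border Slc25a45 was just inside and Gm20760 just outside, both at 8.01. For comparison, 5222 negative control probe sets had a median of 4.20 and a 95th percentile of 7.07 in the control arrays, and 4182 of 19046 protein-coding genes (22.0%) lay above that percentile.

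The 4 control arrays were not alike in every respect. Their medians ran from 4.49 to 4.58, and any pair correlated across genes with r between 0.977 and 0.993. Control 2 stood apart for protein-coding genes: of the 73 bright protein-coding genes with an SD above 0.5, it was the array farthest from the gene's mean for 47, above it for 32 and below it for 15. Control 1 was the farthest array for 17. Over all 1919 bright protein-coding genes, control 2 was the farthest array for 789 (41.1%) and control 1 for 396 (20.6%). Controls 2 and 4 were bright for small structural RNAs and control 3 was dim: 38 bright small nucleolar and guide RNAs averaged 9.48, 10.01, 9.16 and 9.97 in controls 1 to 4. Xist was at 3.42 to 3.56 in all 4 arrays and the Y-linked Eif2s3y at 6.42 to 6.90, a check of the male label made after the data were seen. Eif2s3y too lay under the 95th percentile of the negative controls (7.07), the threshold used for cell type markers below, so the check is weak.

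Promoter windows of 7 genes are printed here because the results return to their CG content and to short elements in them. Each window is the 250 bases before the annotated start, 5′ to 3′ on the gene's own strand, from RefSeq on GRCm38.p6. In the first 3, capitals mark every CG dinucleotide: Alb, the brightest protein-coding gene, at chr5:90460620-90460869 on the plus strand; Cyp2e1, a bright cytochrome P450, at chr7:140763569-140763818 on the plus strand; and Gatad2a, the bright gene with the smallest SD, at chr8:69996385-69996634 on the minus strand.
Alb: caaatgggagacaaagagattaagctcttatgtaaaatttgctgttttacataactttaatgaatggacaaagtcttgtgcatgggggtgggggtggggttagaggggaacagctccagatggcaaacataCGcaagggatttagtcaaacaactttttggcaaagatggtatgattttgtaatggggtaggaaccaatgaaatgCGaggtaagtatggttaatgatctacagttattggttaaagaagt
Cyp2e1: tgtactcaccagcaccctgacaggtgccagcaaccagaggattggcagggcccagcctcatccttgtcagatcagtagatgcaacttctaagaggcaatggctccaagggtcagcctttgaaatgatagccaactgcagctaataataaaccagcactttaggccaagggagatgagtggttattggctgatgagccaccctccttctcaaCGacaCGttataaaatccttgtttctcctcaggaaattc
Gatad2a: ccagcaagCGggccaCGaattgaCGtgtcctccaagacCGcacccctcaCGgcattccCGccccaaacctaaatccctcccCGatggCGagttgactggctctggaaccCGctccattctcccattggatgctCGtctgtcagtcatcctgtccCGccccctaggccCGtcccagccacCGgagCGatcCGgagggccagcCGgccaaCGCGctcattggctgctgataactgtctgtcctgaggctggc
The Alb and Cyp2e1 windows each hold 2 CG dinucleotides and the Gatad2a window holds 18. In the next windows, capitals mark a match to the sterol regulatory element TCACNCCAC in Hmgcs1, at chr13:119690101-119690350 on the plus strand, and matches to the C/EBP palindrome TTGCGCAA and to TATAAA in Orm2, at chr4:63362199-63362448 on the plus strand.
Hmgcs1: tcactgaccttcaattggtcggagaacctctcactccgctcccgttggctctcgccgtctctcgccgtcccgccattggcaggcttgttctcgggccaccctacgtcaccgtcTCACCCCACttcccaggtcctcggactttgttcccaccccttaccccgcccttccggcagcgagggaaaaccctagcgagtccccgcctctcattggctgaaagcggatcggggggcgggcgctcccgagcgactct
Orm2: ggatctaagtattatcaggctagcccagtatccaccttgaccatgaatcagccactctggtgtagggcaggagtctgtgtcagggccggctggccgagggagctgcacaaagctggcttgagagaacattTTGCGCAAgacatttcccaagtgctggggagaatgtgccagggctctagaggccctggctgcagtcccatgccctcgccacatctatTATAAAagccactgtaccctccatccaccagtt
The serum amyloid genes Saa1, at chr7:46742981-46743230 on the minus strand, and Saa2, at chr7:46751583-46751832 on the plus strand, are neighbours. Capitals in their windows mark bases that do not match the other window in a pairwise alignment, in which 238 of 249 aligned positions (95.6%) were identical.
Saa1: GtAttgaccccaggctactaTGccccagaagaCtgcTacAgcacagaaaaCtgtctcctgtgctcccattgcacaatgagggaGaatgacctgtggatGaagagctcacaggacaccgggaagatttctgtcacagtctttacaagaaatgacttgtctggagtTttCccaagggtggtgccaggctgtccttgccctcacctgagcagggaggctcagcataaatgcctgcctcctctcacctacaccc
Saa2: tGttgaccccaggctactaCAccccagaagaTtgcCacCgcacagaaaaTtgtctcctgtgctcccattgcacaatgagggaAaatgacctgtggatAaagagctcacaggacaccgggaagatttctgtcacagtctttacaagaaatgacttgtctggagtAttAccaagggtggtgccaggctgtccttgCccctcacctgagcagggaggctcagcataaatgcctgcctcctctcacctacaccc

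The brightest genes of control liver encode secreted plasma proteins, lipoprotein components, detoxifying enzymes and the RNA of the signal recognition particle. Of the 50 brightest genes, 23 were protein coding and 19 were annotated as pseudogenes. Rn7s1 and Rn7s2, copies of the 7SL RNA that directs secretory proteins to the endoplasmic reticulum, had the same value on every array, 13.42, 13.36, 13.36 and 13.37 in controls 1 to 4. Alb, which encodes serum albumin, was at 13.26, 13.36, 13.22 and 13.30, a mean of 13.28 ± 0.06 (SD, n = 4). Apoa2, a structural protein of high-density lipoprotein, was at 13.09, 13.22, 13.07 and 13.08. Control 2 was the highest array for Alb and for Apoa2, and the whole range over the arrays was 1.10-fold for Alb and 1.11-fold for Apoa2.

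The other named genes among the brightest 20 span the main tasks of the hepatocyte. Ahsg (fetuin A, 12.93 ± 0.08, SD, n = 4) and Trf (transferrin, the iron carrier, 12.92 ± 0.04, SD, n = 4) are plasma carriers. Apoe, a ligand for lipoprotein uptake, was at 12.58 ± 0.05 (SD, n = 4) and closed the list, with Cyp2f2 just outside it at 12.57. Mup20 at 12.95 ± 0.06 and Mup3 at 12.74 ± 0.10 (SD, n = 4 each) encode major urinary proteins, pheromone carriers made in quantity by male liver. Serpina1c, Serpina1b, Mug1 and Pzp encode inhibitors of proteases in plasma and ran from 12.62 for Pzp to 12.83 for Serpina1c. Copies within the Mup and Serpina1 families are closely similar, so the value of a single copy is uncertain.

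Enzymes filled most of the remaining places. Cyp2e1, which oxidises ethanol and acetone, was at 12.93, 12.96, 12.89 and 12.85 in controls 1 to 4, and Adh1, the main alcohol dehydrogenase, at 12.64 ± 0.08 (SD, n = 4). Cat, the peroxisomal catalase, was at 12.84 ± 0.07, Tat, the glucocorticoid-induced tyrosine aminotransferase, at 12.67 ± 0.06, and Gstp1, a glutathione transferase, at 12.64 ± 0.14 (SD, n = 4 each). Scd1, the desaturase that makes monounsaturated fatty acids, was at 12.91, 12.92, 12.63 and 12.99. Hspa8, the constitutive heat shock protein, was at 12.82, 12.71, 12.72 and 12.46. Scd1 and Hspa8 had the widest ranges of the 20, 1.28-fold each. The low array was control 3 for Scd1 and control 4 for Hspa8.

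**Figure D1:**
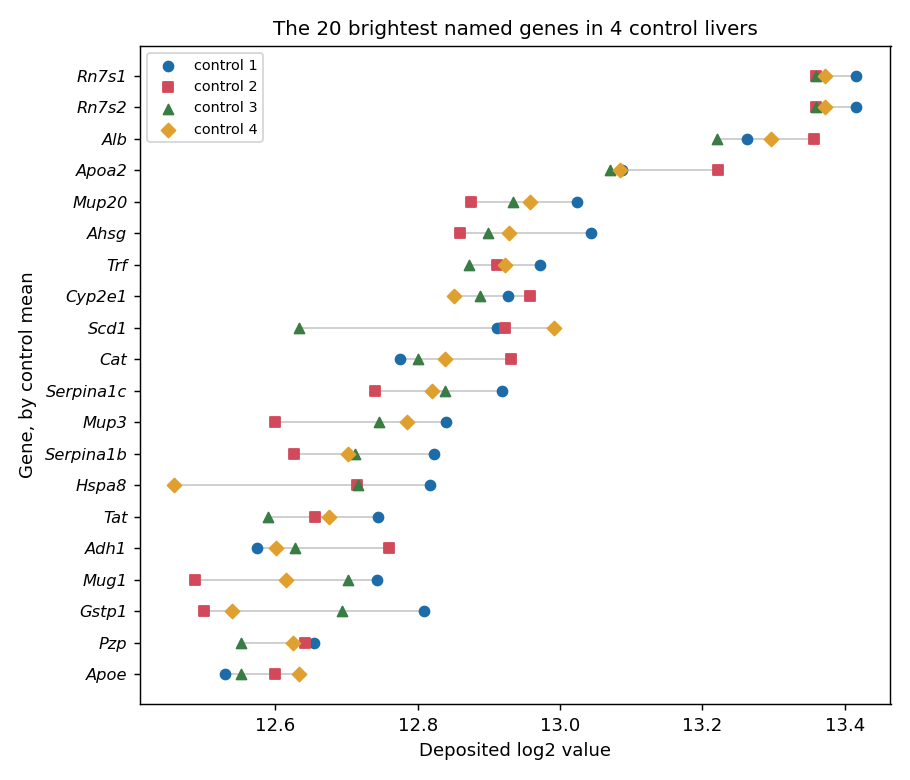
Deposited log2 values (horizontal axis) of the 20 brightest named genes in each of the 4 control arrays, with a grey line from the lowest to the highest array. The genes lie between 12.46 and 13.42, and the widest lines are those of Scd1 and Hspa8.

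The functional make-up was read from 37 pathway lists. A gene can be in several of them. Of the 100 brightest protein-coding genes, whose lowest mean was 11.45, 81 were in a list. Carrier and plasma proteins gave 10 of the 100, cytochrome P450 enzymes 9, amino acid degradation 8, dehydrogenases and carboxylesterases 7, apolipoproteins 6, acute phase proteins 5, and coagulation factors, major urinary proteins and clade A serpins 4 each. Coagulation was bright throughout: 20 of its 21 measured members were bright. The measured members ran from Pros1, the cofactor protein S, at 7.68 to the fibrinogen gene Fgg at 12.51, with Tfpi2, an inhibitor of tissue factor, the most variable (SD 0.45). All 35 measured genes of amino acid degradation were bright, led by Tat, with Mat1a, the liver methionine adenosyltransferase, at 12.31 and Hpd, of tyrosine breakdown, at 12.02. Of 9 measured genes of the urea cycle and ammonia handling, 8 were bright, led by Cps1, which fixes ammonia, at 12.63, 12.19, 12.47 and 12.63 in controls 1 to 4.

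Glucose, bile acid and respiratory genes were bright in most of their measured members. In gluconeogenesis 11 of 14 measured genes were bright, with Pck1, its cytosolic entry enzyme, at 11.76, 11.48, 11.71 and 11.29 and G6pc, which releases free glucose, at 11.42, 11.34, 11.18 and 11.80. The order of the arrays differs between these genes: control 4 was the lowest for Pck1 and the highest for G6pc. In bile acid synthesis and transport 19 of 23 genes were bright, led by the uptake carrier Slc10a1 at 11.58, with Cyp7a1, the rate-limiting enzyme of bile acid synthesis, at 10.74, 10.63, 10.36 and 11.13. Of 49 measured nuclear-encoded genes of oxidative phosphorylation 31 were bright and none of these had an SD above 0.5. The measured ones ran from Ndufc1 of complex I at 6.60 to Cox6a1 of complex IV at 11.24. The 7 measured members of the list of mitochondrially encoded RNAs had a median of 12.05. The brightest of them, Gm10925 at 13.02, is annotated as a pseudogene. Of 34 measured cytosolic ribosomal protein genes 18 were bright, led by Rpl4 at 11.14, and again none of these passed an SD of 0.5. The other ribosomal protein genes of the list were not analysed here.

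Most liver transcription factors were measured above background. Of 28 measured liver transcription factors 26 lay above the negative control percentile and 19 were bright, led by Hnf4a at 9.86 ± 0.11, the fatty acid receptor gene Ppara at 9.79 ± 0.15 and the receptor partner Rxra at 9.78 ± 0.08 (SD, n = 4 each). Nr1h3, the oxysterol receptor LXR alpha, was at 8.17, 8.13, 8.16 and 8.15 and belonged to the 10 steadiest bright genes. Onecut1 (HNF6) was the exception at 9.44, 7.67, 7.04 and 9.38. Controls 1 and 4 were high for Onecut1 and controls 2 and 3 low.

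Most genes of the cell cycle, interferon response and immediate early lists were dim. Of 26 measured cell cycle genes none lay above the negative control percentile, the highest being the replication clamp Pcna at 6.11 and the proliferation marker Mki67 lying at 4.79. Of 29 measured interferon response genes 9 lay above it and 1, Stat2, was bright. Of 22 immediate early genes, which rise within minutes of a stimulus, 4 lay above it. Dusp1, a stress-induced phosphatase, was the variable bright member at 7.86, 8.91, 7.32 and 8.30.

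The labelled tissue was checked against cell type markers. All 13 measured hepatocyte markers were bright, 10 of them in the top 1%, from Asgr2 at 9.62 to Alb. Of 17 sinusoidal endothelial markers 10 lay above the negative control percentile, led by Ehd3 at 9.89, with the scavenger receptor gene Stab2 at 8.30. Of 19 Kupffer cell and macrophage markers 11 did, led by Cd5l at 8.99, with the Kupffer cell lectin gene Clec4f at 8.54. Of 16 stellate cell and fibroblast markers 6 did, led by Bgn at 9.84, with Lrat, which stores retinol in stellate cells, at 7.44. Markers of cholangiocytes (0 of 11, Sox9 highest at 6.98), T and NK cells (0 of 16, Cd3e highest at 5.74), B and plasma cells (0 of 12, Ighm highest at 6.48), neutrophils (0 of 13, Csf3r highest at 5.57), exocrine pancreas (0 of 14, Cela1 highest at 6.45) and muscle (0 of 12, Acta1 highest at 6.26) did not pass it. Erythroid markers passed it for 1 of 6 measured, Alas2 of heme synthesis at 8.72, and kidney and gut markers for 1 of 12, the fatty acid binding protein gene Fabp2 at 9.65. In bulk tissue, fewer cells of a type and less RNA per cell cannot be told apart. Adipocyte markers were at background for Adipoq (2.92) and Lep (4.58), and the 2 bright ones, Car3 at 12.45 and Pck1, are also hepatocyte genes.

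Genes of both zones of the lobule were bright. Around the central vein, Cyp2e1 and Cyp1a2, a caffeine-oxidising P450 at 12.16, 11.51, 11.99 and 12.05, were bright, and 14 of 18 measured pericentral genes lay above the negative control percentile. Of 16 measured periportal genes 13 did, led by Cyp2f2 at 12.57 and Cps1. The most variable bright periportal gene was Pigr, which carries antibodies into bile, at 11.25, 10.53, 11.30 and 11.13, and the most variable pericentral one was Aldh3a2, a fatty aldehyde dehydrogenase, at 9.55, 10.82, 9.93 and 9.85. Control 2 was the low array for Pigr and the high array for Aldh3a2.

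Most bright genes varied little between control livers. The median SD of the 3015 bright genes was 0.149, a 1.11-fold step, with quartiles at 0.098 and 0.232. An SD above 0.5, a step of 1.41-fold, was reached by 176 of them (5.84%), and by 73 of the 1919 protein-coding ones (3.8%). Small structural RNAs made up much of the larger count, with 39 of 55 bright ribosomal RNA genes, 32 of 152 small nuclear RNAs and 17 of 33 small nucleolar RNAs above 0.5. Of the 176 genes, control 3 was the farthest array for 97 and the low one for 96 of those. Over all 3015 bright genes control 3 was the farthest array for 1003 (33.3%) and the low one for 916 of those. Genes with identical values on all arrays are counted separately, and counting them once gave 135 in place of 176. Over controls 1, 3 and 4 the counts were 148 (4.91%) and 35 (1.82%), so the count of protein-coding genes rests largely on control 2. The 73 protein-coding genes had means between 8.02 (the water channel Aqp8) and 11.26 (the fatty acid elongase Elovl5), while the largest SD among the 20 brightest named genes was 0.16, that of Scd1.

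**Figure D2:**
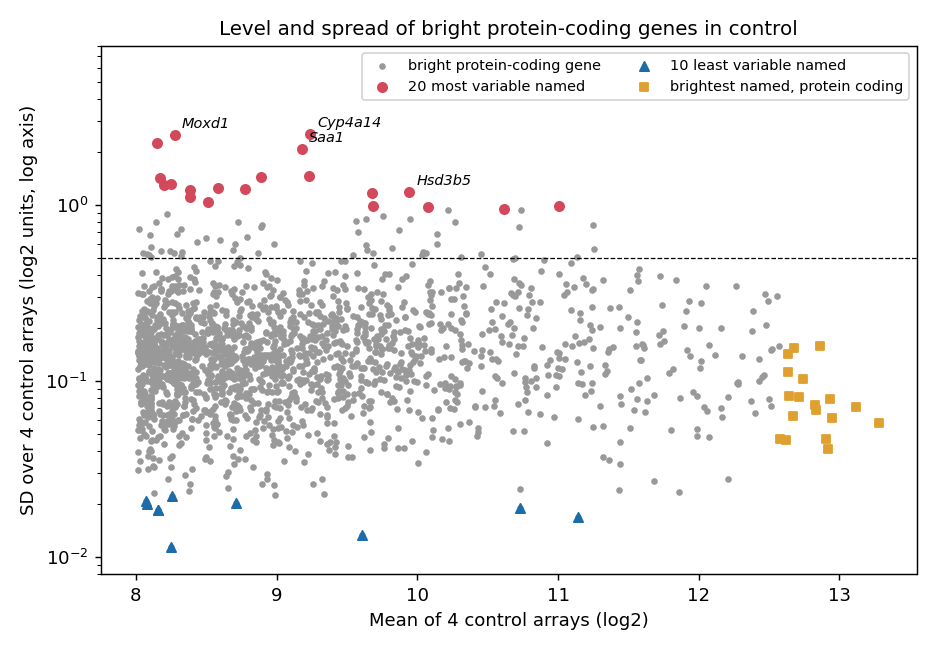
Mean (horizontal axis, log2) against SD over the 4 control arrays (vertical axis, log scale) of the 1919 bright protein-coding genes, with a dashed line at an SD of 0.5. The 20 most variable named genes lie between 0.95 and 2.52, and the 10 least variable between 0.011 and 0.022.

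The most variable bright genes were enzymes of fatty acid oxidation, serum amyloid and other acute phase proteins, sterol synthesis enzymes, metallothioneins and genes known to differ between the sexes. Since the spread itself selected them, their values are given as a description. Cyp4a14, an omega-hydroxylase of fatty acids and a classical target of PPAR alpha, was at 7.46, 12.59, 9.76 and 7.14 in controls 1 to 4, an SD of 2.52 and a range of 43.7-fold. Control 2 was the highest and control 3 the next, while controls 1 and 4 lay together near the background percentile. Without control 2 the SD was 1.43.

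The other bright genes responsive to PPAR alpha were also highest in control 2, except Creb3l3, a liver transcription factor at 9.02, 9.01, 8.86 and 9.08, and Angptl4, a fasting-induced inhibitor of lipoprotein lipase. Angptl4 was at 8.84, 8.38, 8.32 and 7.55 (SD 0.53), highest in control 1. Ehhadh, the bifunctional enzyme of peroxisomal beta oxidation, was at 9.97, 12.03, 10.22 and 10.26, with an SD of 0.95 that fell to 0.16 without control 2. Acot2, a mitochondrial thioesterase, was at 7.66, 10.43, 8.27 and 7.97, and Vnn1, the pantetheinase vanin, at 7.31, 10.18, 7.79 and 7.71. Cyp4a31 (8.87, 11.14, 10.09 and 8.61) and Cyp4a32 (9.38, 11.27, 10.46 and 9.19) belong to the same family as Cyp4a14, so their values may not be independent of it. All 18 bright members of the list were above their own mean in control 2, by a median of 0.50. Where control 2 was the farthest array of a bright protein-coding gene, it was above the mean for 480 and below it for 309. An SD above 0.5 was reached by 7 of the 18 (38.9%), against 3.8% of bright protein-coding genes. Fabp1, the liver fatty acid binding protein and the brightest member, was at 11.85, 12.20, 11.61 and 11.99. Ppara itself was at 9.60, 9.98, 9.80 and 9.80.

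Mitochondrial beta oxidation showed the same array with smaller steps. For 19 of its 20 bright members control 2 was the farthest array, against 41.1% of all bright protein-coding genes. The median deviation of the members there was 0.38. None of the 20 had an SD above 0.5. The most variable was Hadhb, a subunit of the trifunctional protein, at 8.69, 9.53, 8.77 and 8.71. Cpt1a, the carnitine transferase that admits fatty acids to mitochondria, was at 11.10, 11.49, 11.02 and 11.04, and the fatty acid transporter gene Slc27a2, the brightest member, at 12.10, 12.08, 12.00 and 11.84.

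Sterol synthesis genes were also highest in control 2. Hmgcs1, the cytosolic synthase of the mevalonate pathway whose promoter window is shown above, was at 7.85, 10.89, 7.85 and 8.96 (SD 1.43, and 0.64 without control 2). Fdps, which makes farnesyl diphosphate, was at 7.84, 9.87, 7.57 and 8.76 (SD 1.04, and 0.62 without control 2). All 4 bright members of the list, with Sc5d, a late sterol desaturase, at 10.10, 10.69, 10.05 and 10.45 and the SREBP retention gene Insig1 at 9.24, 9.81, 9.58 and 9.53, were above their own mean in control 2. Of the 18 measured members, Ebp was an exception at 7.55, 7.43, 7.44 and 7.40. Below the bright threshold, Sqle, which epoxidises squalene, was at 4.51, 7.999, 4.46 and 5.35, and Idi1, an isomerase of the pathway, at 6.01, 8.65, 5.24 and 6.58.

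Most lipogenic genes named here were high in controls 2 and 4 and low in control 3. Angptl8, a hormone of the fed state that inhibits lipoprotein lipase, was at 7.68, 10.76, 8.34 and 10.13 (SD 1.46). Me1, the malic enzyme that supplies NADPH, was at 10.25, 11.87, 9.75 and 11.08, Acly, which supplies cytosolic acetyl-CoA, at 9.24, 10.10, 9.01 and 10.18, and Acacb, which makes malonyl-CoA at mitochondria, at 7.95, 8.77, 7.09 and 8.75. For each of these 4 genes the values of controls 2 and 4 were above those of controls 1 and 3. This split was read from the same values, and how many of all bright genes show it was not counted. Of 20 bright members of the list 7 (35.0%) had an SD above 0.5, against 3.8% of bright protein-coding genes. In control 4, 17 of the 20 were above their own mean. Where control 4 was the farthest array of a bright protein-coding gene, it was the high one for 87 and the low one for 218. Controls 2 and 4 were also the arrays with brighter small nucleolar RNAs (10.01 and 9.97, against 9.48 and 9.16), and the part of this in the lipogenic values was not tested. Lpin1, a phosphatidate phosphatase induced by fasting, ran otherwise, at 10.74, 9.46, 9.08 and 8.97, highest in control 1.

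The most variable acute phase genes were highest in control 1, and most of them lowest in control 2. Saa1 was at 12.03, 7.06, 8.88 and 8.75 in controls 1 to 4, an SD of 2.07 and a range of 31.3-fold. Saa2 was at 11.30, 5.94, 7.67 and 7.70 (SD 2.26). Their transcripts are closely similar, so the values of the pair may not be independent. Orm2, an orosomucoid, was at 10.39, 7.38, 8.70 and 8.63 (SD 1.23), its relative Orm1 at 12.05, 10.19, 11.34 and 11.42, and Fgl1, a fibrinogen-like hepatokine, at 10.04, 8.63, 8.42 and 8.50. In all 5 of these genes control 1 was the highest array. Without control 1 the SD was 1.02 for Saa1, 0.74 for Orm2 and 0.10 for Fgl1.

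Over the list, control 1 was the farthest array for 12 of 16 bright acute phase members, against 20.6% of all bright protein-coding genes. The median deviation of the members there was 0.48, and 5 of them (31.2%) had an SD above 0.5, against 3.8% of bright protein-coding genes. Hamp, the iron hormone hepcidin and the brightest member, was the lowest in control 1, at 12.02, 12.70, 12.65 and 12.51. The summed level of the 19 Kupffer cell and macrophage markers was 12.04 in control 1 and 11.72 to 11.86 in the others, and that of the 13 neutrophil markers 8.63 in control 1 and 8.21 to 8.57 in the others. None of the 13 neutrophil markers lay above the negative control percentile, with S100a8 at 4.64, 2.73, 2.71 and 3.21. The part of these cells in the acute phase values was not tested.

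Control 1 was also high for metallothioneins and the most variable bright heat shock genes. Mt2, a metal-binding protein induced by glucocorticoids and metals, was at 10.08, 7.69, 7.86 and 7.16 (SD 1.29, and 0.36 without control 1), and Mt1 at 10.70, 9.53, 9.65 and 8.65. Hspa1a, the inducible heat shock protein, was at 8.85, 7.79, 7.93 and 7.73, Hsph1, its exchange factor, at 9.05, 8.22, 8.31 and 7.73, and Bag3, a co-chaperone, at 9.37, 8.44, 8.90 and 8.25. Igfbp1, a fasting-induced binding protein of insulin-like growth factors that lay under the bright threshold, was at 9.32, 6.40, 7.22 and 7.40. Each of these 6 genes was highest in control 1. Of the other bright heat shock genes, Hspa8, Stip1 and Hspb8 were also highest there. Hspa9, Hspd1, Hsp90aa1, Hspa4 and Hspe1 were highest in control 2 and Fkbp4 in control 3. All 10 bright genes of the glucocorticoid and fasting list were above their own mean in control 1, by a median of 0.28, and 2 of them were in control 4. The steps differed in size, since Tat had an SD of 0.06 and Pck1 of 0.22 (n = 4 each). Control 1 leaned upward in general. Where it was the farthest array of a bright protein-coding gene, it was the high one for 341 and the low one for 55.

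Most bright genes known to be higher in male than in female liver were low in control 2. Hsd3b5, a steroid-metabolising enzyme, was at 10.41, 8.18, 10.43 and 10.75 (SD 1.19, and 0.19 without control 2). Moxd1, a copper monooxygenase relative, was at 10.15, 4.62, 9.49 and 8.84 (SD 2.50, and 0.66 without control 2), and its value in control 2 lay near the median of the negative controls. Cyp7b1, an oxysterol hydroxylase, was at 10.84, 9.08, 10.63 and 10.52, and Cyp2c70, which makes muricholic acid and is not in the male-biased list, at 11.75, 9.57, 11.25 and 11.46. For each of these 4 genes control 2 lay below all the others, which spread most for Moxd1.

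Of the 22 bright male-biased genes 17 were below their own mean in control 2, by a median over all 22 of 0.46. Where control 2 was the farthest array of any bright protein-coding gene, it was above the mean for 480 and below it for 309. Of the 22, 8 (36.4%) had an SD above 0.5, against 3.8% of bright protein-coding genes. Over controls 1, 3 and 4, 2 of the 22 did, against 1.82%. Mup20, the brightest, was also lowest in control 2, by a small step (SD 0.06). Among the 5 above their mean there was Cyp4a12a, a male-biased omega-hydroxylase, at 11.41, 11.73, 11.60 and 11.61. Among genes known to be higher in females, Cyp2b9, a female-specific P450 under the bright threshold, was at 4.07, 8.50, 4.27 and 4.19. Abcd2, a peroxisomal transporter, was at 5.56, 9.24, 5.44 and 6.36, and is also in the list of genes responsive to PPAR alpha. Of the 29 measured female-biased genes 5 had means above the negative control percentile, and the sulfotransferase genes Sult2a1 (2.61) and Sult3a1 (2.02) were among the dimmest. Sult2a1 was at 2.63, 2.42, 2.64 and 2.76, lowest in control 2. How many of the 29 were high in control 2 is not given here. Xist was at 3.42 in control 2, under its value in the other arrays.

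Terminal complement genes followed the same array. C9, a pore-forming component, was at 10.95, 8.85, 10.43 and 10.65 and lay just outside the 20 named most variable genes with an SD of 0.94. C8b was at 11.28, 9.61, 10.98 and 11.01 and C6 at 10.53, 8.86, 9.90 and 10.20. Control 2 was the lowest array for all 3, and without it none of the 18 bright complement genes had an SD above 0.5. Serping1, the C1 inhibitor and the brightest complement gene measured, was at 11.95, 11.51, 11.84 and 11.67.

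Most bright enzymes of drug metabolism had an SD of 0.5 or less. For comparison, 3.8% (73 of 1919) of all bright protein-coding genes had an SD above 0.5. The list of phase I P450 enzymes leaves out Cyp4a14, Cyp4a31, Cyp4a32 and Cyp7b1 given above. Of its 32 bright genes 2 had an SD above 0.5, too few to set the list apart from that share. They were Cyp2c70, described above (SD 0.98, and 0.25 without control 2), and Cyp2c38, an arachidonate-metabolising P450. Cyp2c38 was at 7.84, 10.05, 7.83 and 7.81 (SD 1.11, and 0.018 without control 2). Of 30 bright conjugating enzymes 4 did, the glutathione transferases Gstm4 (8.22, 9.47, 8.35 and 8.71), Gsta4 (7.59, 8.92, 8.06 and 8.14) and Gstm3 (9.65, 10.78, 9.68 and 10.15), and the sulfotransferase Sult1d1 (9.56, 8.33, 8.60 and 8.97), which was low there. Csad, which makes hypotaurine on the way to taurine, was at 7.01, 10.22, 7.54 and 7.92 (SD 1.42). Pltp, the phospholipid transfer protein, was at 9.35, 11.15, 9.29 and 8.95 (SD 0.99, and 0.22 without control 2).

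**Figure D3:**
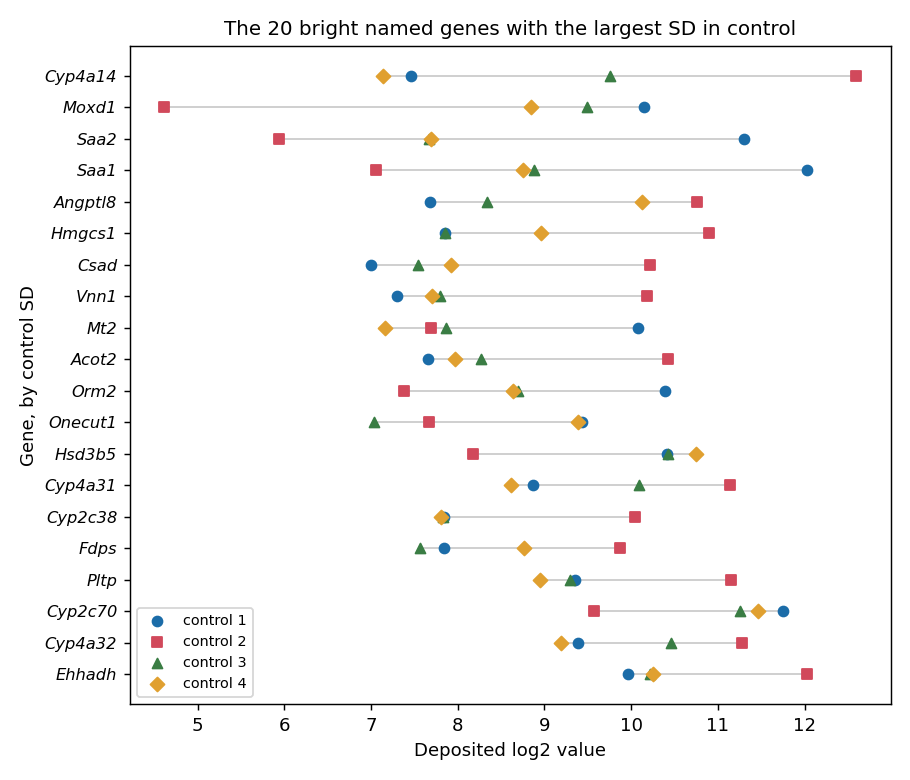
Deposited log2 values (horizontal axis) in each control array of the 20 bright named genes with the largest SD, ordered by SD from the top, with a grey line from the lowest to the highest array. Control 2 is the highest array for 12 of the genes, as for Cyp4a14 at 12.59, and the lowest for 6, as for Moxd1 at 4.62. Control 1 is the highest for 7, among them Saa1, Saa2, Mt2 and Orm2. Some of these genes passed the bright threshold only through their highest array.

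**Figure D4:**
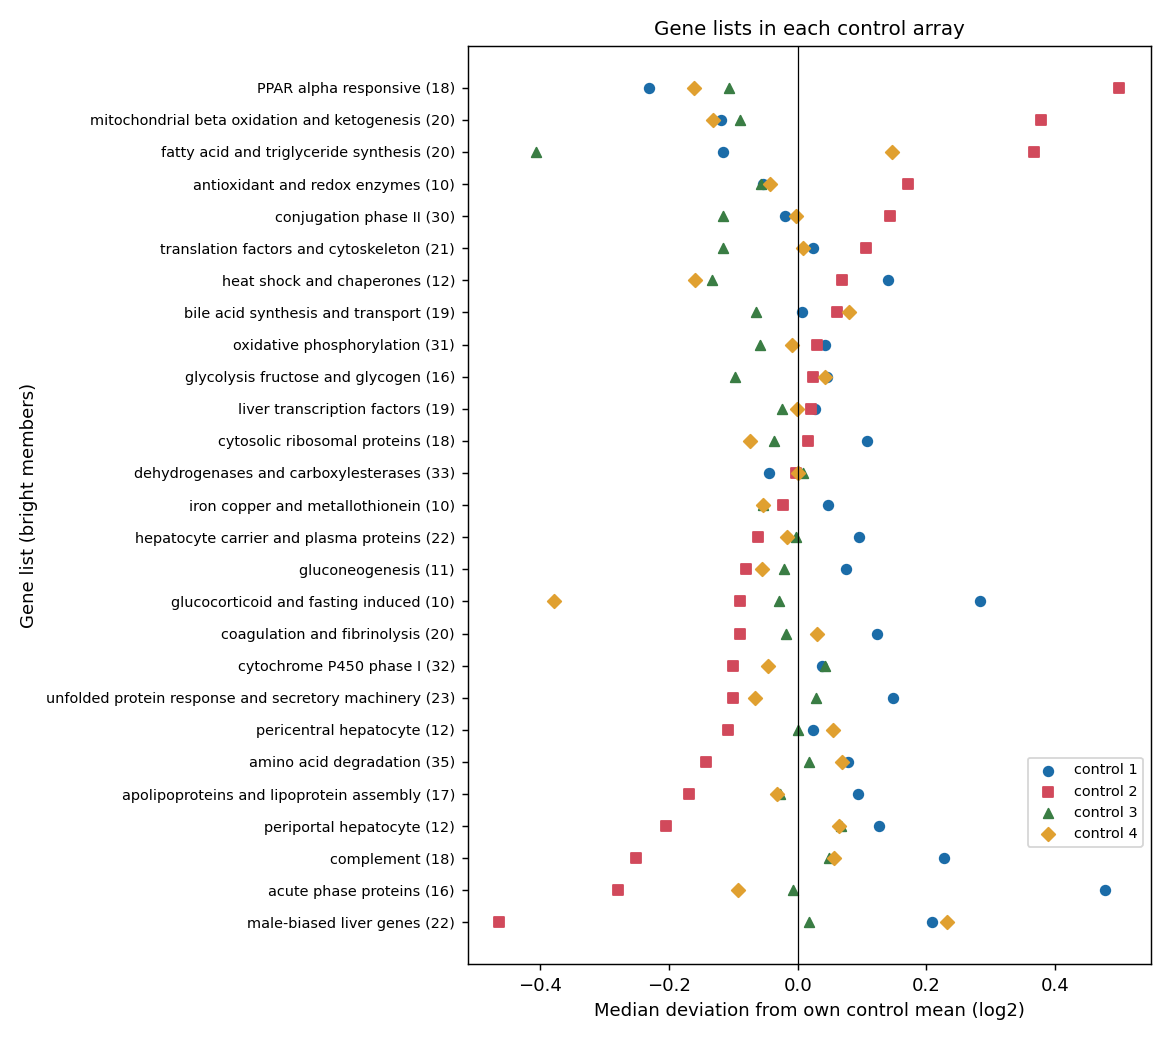
Median deviation of the bright members of each pathway list from their own control mean (horizontal axis, log2) in each control array, for lists with at least 10 bright members (number in brackets). Control 2 spans the widest range over the lists, from −0.46 for male-biased genes to 0.50 for genes responsive to PPAR alpha, and control 1 reaches 0.48 for acute phase proteins.

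The steadiest bright genes were a mixture of general and liver genes. Gatad2a, a subunit of a chromatin remodelling complex, was at 8.24, 8.25, 8.26 and 8.24 (SD 0.011). Gckr, the regulatory protein of glucokinase, was at 9.59, 9.63, 9.61 and 9.61 (SD 0.013), and F5, coagulation factor V, at 11.16, 11.13, 11.13 and 11.16 (SD 0.017). They were followed by Nr1h3, the membrane-anchored ubiquitin-like gene Ubl3, Atp5a1 of the mitochondrial ATP synthase, Atxn7l3b, the splicing factor gene Hnrnpf, the clock kinase gene Csnk1d and Ndufv1 of respiratory complex I, whose SD was 0.022. Cst3, a cystatin, was just outside with the same rounded SD. The widest range of these 10 genes was 1.03-fold. Of the 100 least variable bright genes 83 were protein coding, against 50 of the 100 most variable.

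The ranking of the steadiest genes rested on very small differences and did not hold under other settings. With quantile normalization 5 of the 100 least variable genes stayed in that set, and 31 did without control 2. In the other groups, which played no part in the choice, the 10 named genes had SDs of 0.026 to 0.112 in F2 and 0.030 to 0.126 in F3, against a median of 0.124 and 0.121 over bright genes. Hnrnpf (0.026 and 0.030) and Csnk1d (0.030 and 0.034) were the lowest of the 10 in both groups.

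The spread of a gene in control was set beside its spread in F2 and F3. The 3015 genes brightest over all 12 arrays were ranked by SD in each group, and the 302 widest were compared. Of the 302 in control, 195 (64.6%) were among the 302 in F2 and 172 (57.0%) among those in F3. The groups were measured with the same probe sets. For protein-coding genes alone the shares were 98 of 190 (51.6%) and 86 of 190 (45.3%). Saa1 had an SD of 2.07 in control, 2.05 in F2 and 1.89 in F3. It was at 9.67, 12.66, 9.03 and 7.85 in F2 replicates 1 to 4 and at 8.57, 8.51, 11.95 and 11.65 in F3. The highest array of each group was thus at 12.03, 12.66 and 11.95. Cyp4a14 was at 8.69, 6.92, 7.79 and 11.62 in F2 and at 7.96, 8.82, 7.998 and 5.72 in F3. Mt2 (SD 1.60 in F2 and 1.06 in F3), Orm2 (1.55 and 1.21) and Onecut1 (1.01 and 1.25) were also wide in every group.

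Other genes had a much wider spread in control than in the descendants. Hsd3b5 had an SD of 1.19 in control, 0.13 in F2 and 0.12 in F3, with all 8 descendant arrays between 10.39 and 10.71. Pltp had 0.99 in control, 0.16 in F2 and 0.21 in F3, Cyp2c70 had 0.98, 0.28 and 0.16, and Cyp2c38 had 1.11, 0.31 and 0.37. For each of these 4 genes control 2 alone set the control SD, and without it the SD was 0.25 or less. The difference in spread between groups was not tested. Of the 20 named most variable genes, 16 were among the 302 widest in F2, 15 in F3 and 3 in neither. None of the 20 had an SD in F2 or in F3 below the median of bright genes in that group. As a whole, 69 of 1899 bright protein-coding genes had an SD above 0.5 in control, 66 in F2 and 50 in F3, and the counts were 34, 34 and 29 without the array in each group whose removal lowered it most, control 2, F2 replicate 2 and F3 replicate 4.

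**Figure D5:**
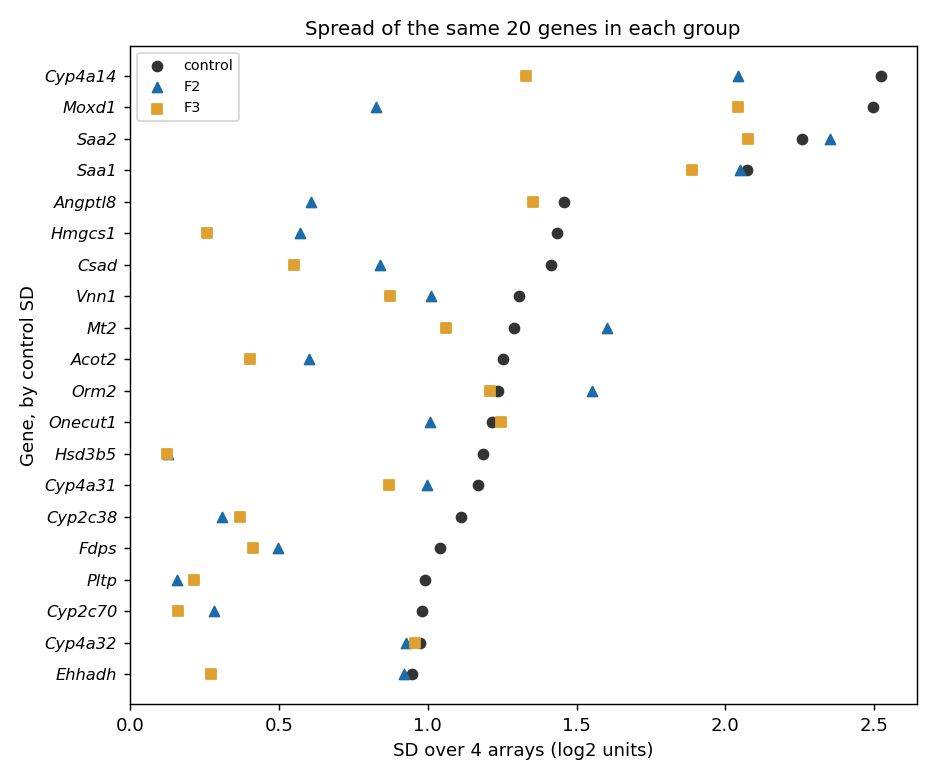
SD over 4 arrays (horizontal axis, log2 units) in control, F2 and F3 of the 20 bright named genes with the largest control SD. Saa1 lies at 2.07, 2.05 and 1.89 in control, F2 and F3, while Hsd3b5 lies at 1.19, 0.13 and 0.12 and Pltp at 0.99, 0.16 and 0.21.

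Control levels were then compared with those of the descendants of obese females by limma across 18725 genes. After Benjamini-Hochberg adjustment no gene (0%) was called for F2 minus control, F3 minus control or the mean of both minus control, and 172, 548 and 279 genes had an unadjusted p under 0.05. The smallest adjusted p values were 0.9999, 0.9998 and 0.9998. Alb averaged 13.28 in control, 13.30 in F2 and 13.33 in F3 (SD 0.06, 0.04 and 0.04, n = 4 each). The differences of the 20 brightest named genes ran from −0.13 for Gstp1 to 0.093 for Mug1 in F2 and from −0.12 for Hspa8 to 0.16 for Mug1 in F3, and none had an unadjusted p under 0.05. Those of the 20 most variable ran from −0.71 for Fdps to 0.92 for Mt2 in F2 and from −1.62 for Cyp4a14 to 0.99 for Saa1 in F3, also with none under 0.05. Of the 10 steadiest genes, Gckr differed by −0.15 in F2 minus control (9.61 in control and 9.46 in F2), with an unadjusted p of 0.036 and an adjusted limma p of 0.9999. In F3 minus control, Csnk1d differed by −0.13 (8.07 and 7.94, unadjusted p 0.0157) and Atp5a1 by −0.12 (10.73 and 10.61, unadjusted p 0.0392), with an adjusted limma p of 0.9998 each. Atp5a1 also had an unadjusted p of 0.0295 for the mean of both groups, with an adjusted limma p of 0.9998. The most variable and the steadiest genes were chosen by their spread over the same control arrays, and that spread enters their limma p. The choice tends to raise the p of the most variable genes and to lower that of the steadiest. The unadjusted p values of these genes are therefore a description. A p that misses the threshold does not show that levels were equal.

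Promoter composition was compared between the brightest, the most variable and the least variable protein-coding genes, as a description with no test. The windows were those of RefSeq, 250 bases before the start and 1 per gene, and were found for 75 of the 100 brightest protein-coding genes, 80 of the 100 most variable and 83 of the 100 least variable. An observed to expected CG ratio above 0.6, the usual mark of a CpG-rich promoter, was found in 8 of 75 (10.7%) of the brightest, 31 of 80 (38.8%) of the most variable and 52 of 83 (62.7%) of the least variable genes, against 59.7% of bright protein-coding genes and 34.5% of all 27025 windows. The Alb, Cyp2e1 and Gatad2a windows have ratios of 0.26, 0.14 and 0.74. The median GC content was 49.2% in the brightest, 55.8% in the most variable and 59.6% in the least variable. TATAAA on the sense strand between 40 and 15 bases before the start was in 5 of 75 (6.67%), 5 of 80 (6.25%) and 2 of 83 (2.41%). It was in 2.75% of windows of bright protein-coding genes and 2.22% of all windows. Cyp2e1 and Orm2 hold it.

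Longer elements were found in few windows. The sterol regulatory element TCACNCCAC, searched on both strands, was in 1 of 14 cholesterol synthesis windows, that of Hmgcs1, and in 1.04% of all windows. The palindrome TTGCGCAA was in 1 of 16 acute phase windows, that of Orm2, and in 0.17% of all windows. The HNF4 site CAAAGTCCA was in 1 of 75 windows of the brightest genes (1.33%) and in 0.381% of all. An HNF1 element was in none of those 75 windows, in 3 of 20 windows of carrier and plasma proteins and in 0.411% of all. The 3 genes were Cp (ceruloplasmin), Igfbp1 and Afm (afamin). A match is a description of the letters and not a binding site, and an absent match says only that these letters are not in this window.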

How the data were processed

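Liver RNA of 12 samples was hybridised to Affymetrix arrays after Trizol extraction and labelling with the WT Plus kit, per the labels' protocols. The log2 values per probe set were deposited by the authors. The submitters' processing notes name Affymetrix Expression Console as the tool, and for background correction and normalization the method is not given in the sources used here. Of 72688 probe sets, 30604 carried 1 gene symbol, 2146 several and 39938 were unnamed here. Of the 30604, 22818 matched RefSeq (GRCm38.p6), and 827 symbols were updated. Where a gene had more than 1 probe set (355 genes), the brightest over all 12 arrays stood for it.

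Means and SDs were taken over the 4 control arrays. Differences were tested with limma 3.58.1 in R 4.3.3 on all 12 arrays, for genes above the median of all probe sets, with Benjamini-Hochberg adjustment at 0.05, and the code was tested on simulated data. Tables were made with Python 3.11.15 (pandas 2.3.3, numpy 2.4.6) and windows aligned with Biopython 1.88. The number of arrays limits the precision.

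Predicted, RIKEN, pseudogene-suffixed and small RNA genes were counted but passed over in naming. Named were the 20 brightest, 20 most variable and 10 least variable bright genes and, of each list, its brightest and most variable bright members, up to 4 for their role and up to 4 by SD above 0.5, and genes at an end of a printed range. A few others (Xist and the Y-linked gene, Aqp8, Elovl5, Ebp) were chosen after their values were seen. Members and lists were chosen with earlier results of these data known. Alternatives were quantile normalization, centring, other thresholds, other measures of spread, leaving out each array and a replicate block.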

Additional observations from a re-analysis of the deposited data

Results flagged for a closer look

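Within the control group, 9 of 131 named genes had a single array far from the other 3 by Dixon's gap criterion at the 95% level. Chance gives about 1 such gene in 20, and over all bright genes 149 of 3015 (4.94%) met the criterion, so the number is not a result in itself. Control 2 was the array in 6 of the 9 and control 3 in 3.

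In control 2, Cyp2c38 was at 10.05 against 7.81 to 7.84 in the other arrays. Vnn1 was at 10.18 against 7.31 to 7.79, Ehhadh at 12.03 against 9.97 to 10.26 and Hadhb at 9.53 against 8.69 to 8.77, all of them high. Apoa2 was at 13.22 against 13.07 to 13.09, a small step in a steady gene. Hsd3b5 was the low gene of this array, at 8.18 against 10.41 to 10.75.

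In control 3 the gaps were small and all downward. Slc10a1 was at 11.39 against 11.63 to 11.67, Pcna at 5.90 against 6.17 to 6.22, and Atp5a1 at 10.70 against 10.74 in each of the others. The source of the gaps was not tested.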

How the results depend on the processing

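The brightest genes held under every alternative run, with 46 to 50 of the 50 shared and 47 to 49 when an array was left out. The least variable set did not: of its 100 genes 5 were shared under quantile normalization, 48 with array medians centred, 42 with the brightness threshold at the higher setting, 40 by median absolute deviation, and 31 to 49 when an array was left out. Of the 100 most variable genes 54 were shared at the higher brightness threshold, which tests fewer genes, and 67 to 81 when an array was left out. The count with an SD above 0.5 was 108 at that threshold and 135 to 206 when an array was left out, and 73 for protein-coding genes only, an alternative chosen after seeing the data. The overlap of wide genes with F2 was 106 of 151 at the higher threshold and 98 of 190 for protein-coding genes, and 165 to 187 of 302 without an array. That with F3 was 95 of 151, 86 of 190, 148 to 170 of 302, and 95 of 302 by median absolute deviation. The causes were not tested. Of 655 alternative means of 131 named genes, 652 moved by less than the SD, and the other 3 were under quantile normalization. The limma comparisons called 0 genes under every alternative run, and the smallest adjusted p ran down to 0.1253 for F2 without control 1. With the replicate block they called 0 genes, with 140, 409 and 215 at an unadjusted p under 0.05. Of 12 same-numbered pairs of arrays, correlations ran from −0.51 to 0.32 and 3 were over 0.1, so the numbers were not taken to pair the samples.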
